A study of Mus musculus with 4 samples.

Results

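The genes of glucose uptake and of the control steps of glycolysis described here number 10, taken from the deposited table by exact symbol: the glucose transporter genes Slc2a1 and Slc2a6, the hexokinase genes Hk1, Hk2 and Hk3, the phosphofructokinase genes Pfkl and Pfkp with the regulator Pfkfb3, the pyruvate kinase gene Pkm and the lactate dehydrogenase gene Ldha. They are 10 of 34745 genes in the table, and all 10 were among the 11841 genes that passed the filter on low counts. RNA came from macrophages of the peritoneal cavity of wildtype C57BL/6 mice, collected 3 days after 2 ml of 3% thioglycolate medium had been injected and then kept as adherent cultures. In the MB-3 group (2 libraries) the cells received 50 µM MB-3, a compound known as an inhibitor of the acetyltransferase GCN5, and in the DMSO group (2 libraries) they received the solvent DMSO. Cells of both groups were then given lipopolysaccharide (LPS, a bacterial outer membrane component that macrophages sense) for 4 hours at 100 ng/ml, so that neither group shows the state without LPS. The series title speaks of bone marrow-derived macrophages, whereas every sample label says peritoneal macrophages. No source used here gives the age or number of mice, or says whether replicates were separate cultures, and the p-values therefore measure the spread between these libraries, which may be technical.

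Glucose enters a cell through transporters of the SLC2A (GLUT) family and is trapped by hexokinases as glucose phosphate. Phosphofructokinase then makes the committed step, under control of a sugar bisphosphate that PFKFB enzymes make and degrade, and pyruvate kinase and lactate dehydrogenase close the pathway. Macrophages activated by LPS are known for raised glycolysis and lactate output, with HIF-1, a transcription factor of low oxygen and of inflammatory activation, among the regulators of these genes.

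The libraries held 18538799 and 17864065 counts with MB-3 and 21320618 and 15598531 counts with DMSO. The macrophage markers were present: Adgre1, which encodes the surface protein F4/80, stood at 91.8 and 102 FPKM (fragments scaled to gene length and library size, the authors' values) with MB-3 and at 89.2 and 100.2 FPKM with DMSO. Cd68, a lysosomal protein gene of macrophages, stood at 709.5 and 671 FPKM with MB-3 and at 579 and 544 FPKM with DMSO. All 8 macrophage markers had counts, and their summed level was 22790 and 23602 FPKM with MB-3 and 18540 and 19323 FPKM with DMSO, most of it from Lyz2, the lysozyme gene. They did not move together: by the test described below, Lyz2, Cd68, Csf1r (log2 fold change 0.69) and Itgam (1.78) were higher with MB-3, and Fcgr1 (-2.38), Mertk (-1.37) and Cd14 (-0.98) were lower. Adgre1, at 0.08, missed the threshold. The 8 neutrophil markers summed to 18.2 and 15.9 FPKM with MB-3 and to 26.5 and 28.6 FPKM with DMSO, mainly from S100a8, and Ly6g was listed at 0 in every library. S100a8 itself stood at 11.9 and 9.56 FPKM with MB-3 and at 22.1 and 22.8 FPKM with DMSO. Mmp8, the next in level, was not lower (log2 fold change 0.36, short of the threshold), and S100a9 was at most 0.769 FPKM in a library. The 6 T cell markers summed to 0.546 and 1.15 FPKM with MB-3 and to 4.33 and 4.56 FPKM with DMSO. Of these sums, Lck alone made 0.425 and 0.417 FPKM with MB-3 and 3.70 and 3.56 FPKM with DMSO, and Cd3e was at most 0.0780 FPKM in a library. Each of the other marker lists (B, NK, mast, eosinophil, dendritic, mesothelial or fibroblast, erythroid), led by Ighm, Klrb1c, Tpsb2, Siglecf, Zbtb46, Upk3b and Hbb-bs, summed to at most 3.70 FPKM in a library. The part of these lists in the results below was not tested. In bulk RNA, fewer cells of a type and less RNA per cell cannot be told apart.

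The transcripts of the transporter Slc2a6 and the hexokinase Hk2 were severalfold lower with MB-3 than with DMSO, while those of the transporter Slc2a1 and of pyruvate kinase were higher by 1.97-fold and 1.94-fold. Of the 10 genes, 2 were higher with MB-3, 5 were lower and 3 missed the threshold, a Benjamini-Hochberg adjusted p of 0.05 over all 11841 genes from the quasi-likelihood test of edgeR. Among all genes tested, 37.1% were called, 16.9% as higher and 20.2% as lower, so 2 of 10 higher is near the background, and 5 of 10 lower stands beside 20.2% with no test of that difference. The median log2 fold change, MB-3 over DMSO, was -0.28 over the 10 genes and -0.01 over all genes tested, and the 10 genes ran from -3.05 to 0.98. For 8 of the 10 genes all values of one group lay beyond those of the other, near the background of 70.8% of all genes tested. Log2 fold changes below are on edgeR's scale, with standard errors (SE), and CPM are counts scaled to library size with TMM factors.

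**Figure D1:**
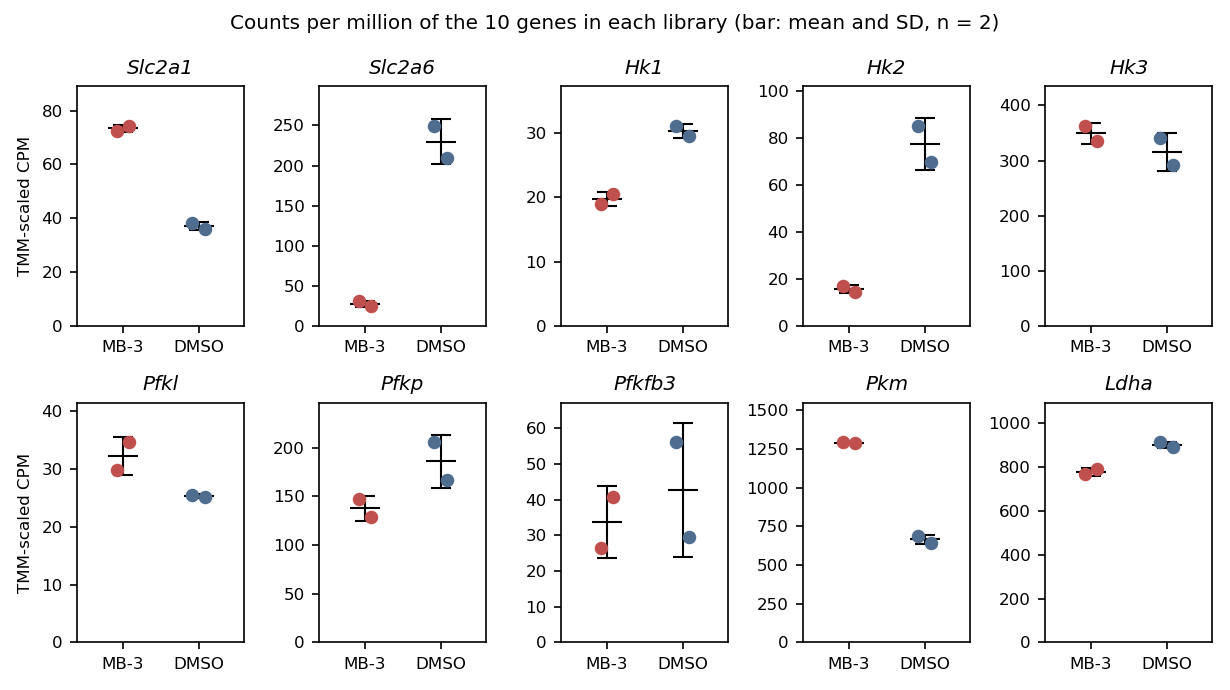
Each panel plots TMM-scaled CPM (vertical axis, from 0) of 1 gene in the 2 MB-3 libraries (left, red) and the 2 DMSO libraries (right, blue), with the mean and SD of each group (n = 2). Slc2a6 and Hk2 lie far below their DMSO values with MB-3, Slc2a1 and Pkm lie above theirs, and the points of Pfkfb3 and Hk3 overlap between the groups.

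The transporter genes went opposite ways. Slc2a6 (ENSMUSG00000036067, chromosome 2 from 27021363 to 27027998, minus strand) encodes GLUT6, a transporter of lysosomal membranes. It had 30.5 and 25.1 CPM in the MB-3 libraries, from 546 and 450 counts, against 249 and 210.0 CPM in the DMSO libraries, from 5350 and 3351 counts. Every MB-3 value was below every DMSO value, and each group's libraries lay close together. The fall was 8.26-fold (log2 fold change -3.05, SE 0.14, edgeR adjusted p = 3.05e-05), and 1.62% of all tested genes had a lower log2 fold change. Slc2a1 (ENSMUSG00000028645, chromosome 4 from 119108711 to 119137983, plus strand) encodes GLUT1, the widespread transporter of the plasma membrane. It had 72.4 and 74.3 CPM with MB-3 and 38.2 and 36.1 CPM with DMSO, a 1.97-fold rise (log2 fold change 0.98, SE 0.087, edgeR adjusted p = 3.72e-04). Again the groups did not overlap, and the replicates within a group differed by 1.03-fold with MB-3 and by 1.06-fold with DMSO.

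Per length, the rank of these transporters was exchanged. Slc2a6 averaged 5.48 ± 0.605 FPKM with MB-3 and 46.7 ± 5.12 FPKM with DMSO, and Slc2a1 averaged 13.8 ± 0.623 FPKM with MB-3 and 7.22 ± 0.208 FPKM with DMSO (SD, n = 2 each). In other words, the ratio of Slc2a6 to Slc2a1 was 0.441 and 0.354 in the MB-3 libraries and 6.83 and 6.09 in the DMSO libraries. Summed over Slc2a1, Slc2a3, Slc2a6, Slc2a8 and Slc2a9, transporter transcripts came to 21.1 and 21.3 FPKM with MB-3 and to 59.4 and 51.6 FPKM with DMSO. Slc2a6 held 28.0% and 23.7% of that sum with MB-3 and 84.8% and 83.6% with DMSO. These shares use the gene lengths implied by the authors' FPKM. Shares were also computed with the length of each gene's principal transcript, a choice made after seeing the data. Slc2a6 then held a mean of 31.8% with MB-3 and 87.2% with DMSO, and Slc2a1 55.1% and 9.29%, so the exchange of rank remained. With 2 libraries a group, an exact two-sided permutation test of such a share cannot go below p = 0.333, so shares are given as descriptions.

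Among the hexokinases, which phosphorylate glucose, the inducible isozyme moved most. Hk2 (ENSMUSG00000000628, chromosome 6 from 82725025 to 82774454, minus strand) encodes a hexokinase that binds mitochondria. It had 17.0 and 14.6 CPM with MB-3, from 304 and 262 counts, and 85.2 and 69.7 CPM with DMSO, from 1827 and 1113 counts. The groups were far apart, and the fall was 4.90-fold (log2 fold change -2.29, SE 0.14, edgeR adjusted p = 8.10e-05), with 2.78% of tested genes lower still. Hk1 (ENSMUSG00000037012, chromosome 10 from 62268855 to 62379908, minus strand), the housekeeping isozyme, also fell, to 18.9 and 20.5 CPM with MB-3, against 31.0 and 29.5 CPM with DMSO (log2 fold change -0.62, SE 0.11, edgeR adjusted p = 5.87e-03). Hk3 (ENSMUSG00000025877, chromosome 13 from 55005985 to 55021385, minus strand), an isozyme typical of myeloid cells, was at 363 and 336 CPM with MB-3 and at 341 and 292 CPM with DMSO. Its groups overlapped, and the log2 fold change of 0.14 had a 95% interval from -0.09 to 0.38 (edgeR adjusted p = 0.290). Without DMSO replicate 1 it was 0.31 (edgeR adjusted p = 0.0420, against a range from 0.0420 to 0.735 over 13 alternative settings).

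Hk3 made up most hexokinase transcript per length in every library: 93.7% and 93.6% of the summed FPKM with MB-3 and 78.9% and 79.2% with DMSO. The share of Hk2 was 3.90% and 3.62% with MB-3 and 17.6% and 16.9% with DMSO. The hexokinase sum was 61.2 and 59.1 FPKM with MB-3 and 71.2 and 61.7 FPKM with DMSO, so it moved far less than Hk2 alone. These shares rest on the gene lengths implied by the authors' FPKM, which for Hk1 is 12382 bases against 3851 bases in its principal transcript. Computed per principal transcript, a choice made after seeing the data, the mean share of Hk1 was 4.40% with MB-3 and 6.57% with DMSO, against 2.61% and 3.75% per implied length. Hk2 then held 2.46% with MB-3 and 11.7% with DMSO, so the order of Hk1 and Hk2 in the MB-3 libraries depends on the length used, while Hk3 led under both.

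**Figure D2:**
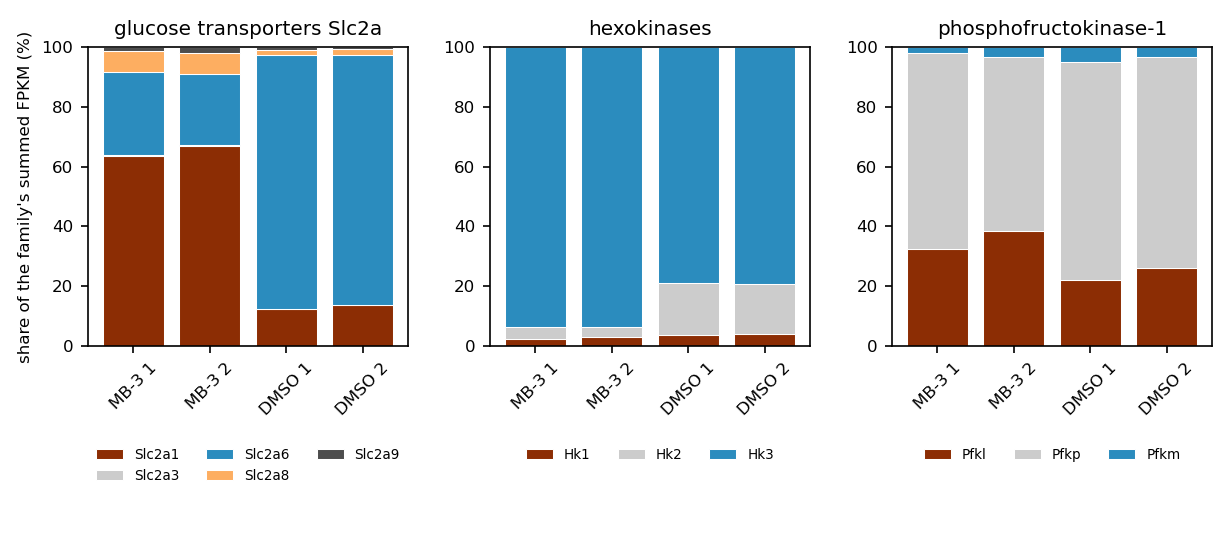
Stacked bars give each isozyme's percentage (vertical axis, 0 to 100) of its family's summed FPKM in the MB-3 libraries (left pair) and the DMSO libraries (right pair), for Slc2a transporters, hexokinases and phosphofructokinases. Slc2a1 takes 63.5% and 66.9% of the transporter sum with MB-3 and 12.4% and 13.7% with DMSO, and Hk2 shrinks beside Hk3.

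Changes at phosphofructokinase, the committed step, were small. Pfkp (ENSMUSG00000021196, chromosome 13 from 6579768 to 6648777, minus strand), the platelet-type isozyme, had 147 and 129 CPM with MB-3 and 205 and 166 CPM with DMSO, with no overlap (log2 fold change -0.43, SE 0.12, edgeR adjusted p = 0.0371). Its call was lost in 4 of 13 alternative settings, with an adjusted p from 0.00286 to 0.164 over all of them, the highest without DMSO replicate 1. Its exons share 748 bases with those of Pitrm1 on the opposite strand, so its count is uncertain if the authors' counting ignored strand. Pfkl (ENSMUSG00000020277, chromosome 10 from 77986947 to 78010083, minus strand), the liver-type isozyme, was at 29.8 and 34.5 CPM with MB-3 and at 25.5 and 25.1 CPM with DMSO. Its groups did not overlap, and its log2 fold change of 0.35 (SE 0.11, 95% interval 0.07 to 0.62) had an edgeR adjusted p of 0.0551, just outside the threshold. It was called as higher with RLE factors (adjusted p = 0.0472), with upper quartile factors (0.0439) and with a replicate block (0.0391), over a range from 0.0391 to 0.246 in 13 alternative settings. Per length, Pfkl held 32.4% and 38.3% of phosphofructokinase transcript with MB-3 and 22.1% and 26.0% with DMSO. Per principal transcript its mean share was 20.4% with MB-3 and 13.0% with DMSO.

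Pfkfb3 (ENSMUSG00000026773, chromosome 2 from 11471433 to 11554077, minus strand) encodes the enzyme that makes the allosteric activator of phosphofructokinase. Its libraries disagreed within groups, at 26.5 and 40.7 CPM with MB-3 and at 56.0 and 29.4 CPM with DMSO. The highest and the lowest replicate of a group differed by 1.53-fold with MB-3 and by 1.90-fold with DMSO, and the groups overlapped. The log2 fold change of -0.35 had an SE of 0.33 and a 95% interval from -1.14 to 0.44 (edgeR adjusted p = 0.441), and without DMSO replicate 1 its sign turned, to 0.24. That interval includes a fall as large as the rise of Slc2a1, so these libraries leave the level of Pfkfb3 poorly determined. It was -0.72 without DMSO replicate 2, and the adjusted p ran from 0.0562 to 0.897 over 13 alternative settings.

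The last steps of the pathway diverged. Pkm (ENSMUSG00000032294, chromosome 9 from 59656368 to 59679375, plus strand), whose splice forms PKM1 and PKM2 are not distinguished by gene counts, had 1292 and 1291 CPM with MB-3 and 686 and 645 CPM with DMSO. This rise of 1.94-fold (log2 fold change 0.96, SE 0.067, edgeR adjusted p = 1.48e-04) exceeded the spread of both groups. Ldha (ENSMUSG00000063229, chromosome 7 from 46841475 to 46855627, plus strand), which turns pyruvate into lactate, had 766 and 792 CPM with MB-3 and 912 and 891 CPM with DMSO. The groups did not overlap, and the fall was 1.16-fold (log2 fold change -0.21, SE 0.064, edgeR adjusted p = 0.0448). That call was lost in 7 of 13 alternative settings, among them DESeq2 (adjusted p = 0.0967) and the omission of any single library, with an adjusted p from 0.0239 to 0.253 over all of them. Per length, Pkm stood at 480.0 and 498 FPKM with MB-3 and at 266 and 254 FPKM with DMSO, and Ldha at 161 and 173 FPKM with MB-3 and at 199.97 and 199 FPKM with DMSO. The ratio of Pkm to Ldha was thus 2.98 and 2.88 with MB-3 and 1.33 and 1.28 with DMSO. These ratios rest on implied lengths of 2599 bases for Pkm and 4589 bases for Ldha. The principal transcripts have 2432 and 1766 bases. In CPM, which are not divided by length, Pkm lay below Ldha with DMSO and above it with MB-3. Which of them was more abundant with DMSO therefore depends on the length used, whereas the higher ratio with MB-3 does not.

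Both genes have copies of similar sequence whose reads could be shared with them. In GENCODE M21, 9 other genes matched a Pkm transcript and 13 matched an Ldha transcript over at least 200 bases at 90% identity or more. Identifiers of 2 of the Ldha copies and of none of the Pkm copies were found in the table, and those 2 held at most 0.230% of the Ldha count in a library. The other 8 genes had no such match. One of the Pkm matches, Gm49759, is a locus on the same strand whose exons share 767 bases with those of Pkm.

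Promoter windows of the 4 genes with the largest falls and rises are shown because they are the members whose expression separates the groups most. Each is the RefSeq window (build GRCm38.p6) from 250 bases before to 50 bases after an annotated start, read 5′ to 3′ on the gene's strand. Capitals mark every ACGTG or GCGTG on either strand (CACGT or CACGC where it lies on the other strand), the core letters of the HIF recognition motif. The windows lie at chr2:27027949-27028248 (Slc2a6, minus strand), chr6:82774405-82774704 (Hk2, minus strand), chr4:119108495-119108794 (Slc2a1, plus strand) and chr9:59656977-59657276 (Pkm, plus strand).
Slc2a6: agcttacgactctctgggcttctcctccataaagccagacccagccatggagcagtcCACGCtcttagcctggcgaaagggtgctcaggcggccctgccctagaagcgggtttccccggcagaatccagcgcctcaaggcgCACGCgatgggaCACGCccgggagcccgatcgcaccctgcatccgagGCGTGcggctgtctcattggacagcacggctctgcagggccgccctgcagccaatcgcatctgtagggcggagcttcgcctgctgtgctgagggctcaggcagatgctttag
Hk2: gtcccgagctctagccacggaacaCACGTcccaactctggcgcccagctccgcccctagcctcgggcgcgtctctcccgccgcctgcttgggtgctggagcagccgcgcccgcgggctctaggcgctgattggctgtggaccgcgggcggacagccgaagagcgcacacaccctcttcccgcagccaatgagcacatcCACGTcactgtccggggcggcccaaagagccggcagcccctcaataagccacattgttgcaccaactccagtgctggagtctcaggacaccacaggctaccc
Slc2a1: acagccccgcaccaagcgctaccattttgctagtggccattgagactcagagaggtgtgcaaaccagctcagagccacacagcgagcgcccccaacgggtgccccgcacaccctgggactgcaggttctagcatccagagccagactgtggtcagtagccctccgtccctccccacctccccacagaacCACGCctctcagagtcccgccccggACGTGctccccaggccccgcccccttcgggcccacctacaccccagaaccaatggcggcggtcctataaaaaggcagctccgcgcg
Pkm: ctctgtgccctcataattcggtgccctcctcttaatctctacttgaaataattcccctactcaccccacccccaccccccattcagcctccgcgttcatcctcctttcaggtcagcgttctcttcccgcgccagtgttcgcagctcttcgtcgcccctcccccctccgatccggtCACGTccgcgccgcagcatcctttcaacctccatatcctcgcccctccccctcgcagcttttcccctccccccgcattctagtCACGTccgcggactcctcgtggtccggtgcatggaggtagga

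The window shown for Pkm belongs to the downstream of 2 annotated starts and was chosen because it holds the motif, while the upstream window (chr9:59656326-59656625) holds none. All 10 genes had at least 1 window in the RefSeq table, 14 in all, and 12 of the 14 held at least 1 HIF core, against 43.8% of all 32851 windows. Among windows with at least 60% GC the core was in 10 of 11 windows of these genes and in 69.2% of all 9690 such windows. Genes that fell and genes that rose both carried it. The E-box CACGTG, which contains ACGTG, occurred in windows of Pfkfb3 and Ldha and in 7.15% of all windows. The NF-κB consensus was in no window of the 10 genes and in 4.51% of all windows, and the antioxidant element TGACNNNGC was in 1 window, that of Hk1, and in 12.4% of all windows, each searched on both strands.

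The rest of the pathway was read from lists of genes by step. In lower glycolysis, the steps from aldolase to enolase, 6 of 10 tested genes were higher and 1 was lower, with a median log2 fold change of 0.48. All genes tested gave 16.9% higher and 20.2% lower, and the difference from that background was not tested. Aldoa, the aldolase gene, had 668 ± 50.7 CPM with MB-3 and 338 ± 17.5 CPM with DMSO (SD, n = 2 each), a log2 fold change of 0.98 (SE 0.084, edgeR adjusted p = 3.29e-04). Gapdh, a dehydrogenase gene often used as a reference transcript, was at 219 and 217 CPM with MB-3 and at 134 and 135 CPM with DMSO (log2 fold change 0.69, SE 0.071, edgeR adjusted p = 7.07e-04). Pgk1, the phosphoglycerate kinase gene, rose by 0.56 on the log2 scale, and Eno1 (0.60), Pgam1 (0.53) and Tpi1 (0.42) also rose. The lower gene was Eno2, the neuronal-type enolase, at 10.3 CPM with MB-3 and 18.8 CPM with DMSO (log2 fold change -0.87, SE 0.15). Gapdh, Eno1 and Pgam1 are uncertain as single values, since 177 genes of GENCODE M21 matched Gapdh at the same limits, and the matching gene found in the table for Eno1 held up to 42.1% of the Eno1 count. For Pgam1 the matching genes in the table, chiefly the pseudogene Pgam1-ps2, held up to 13.97% of its count.

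**Figure D3:**
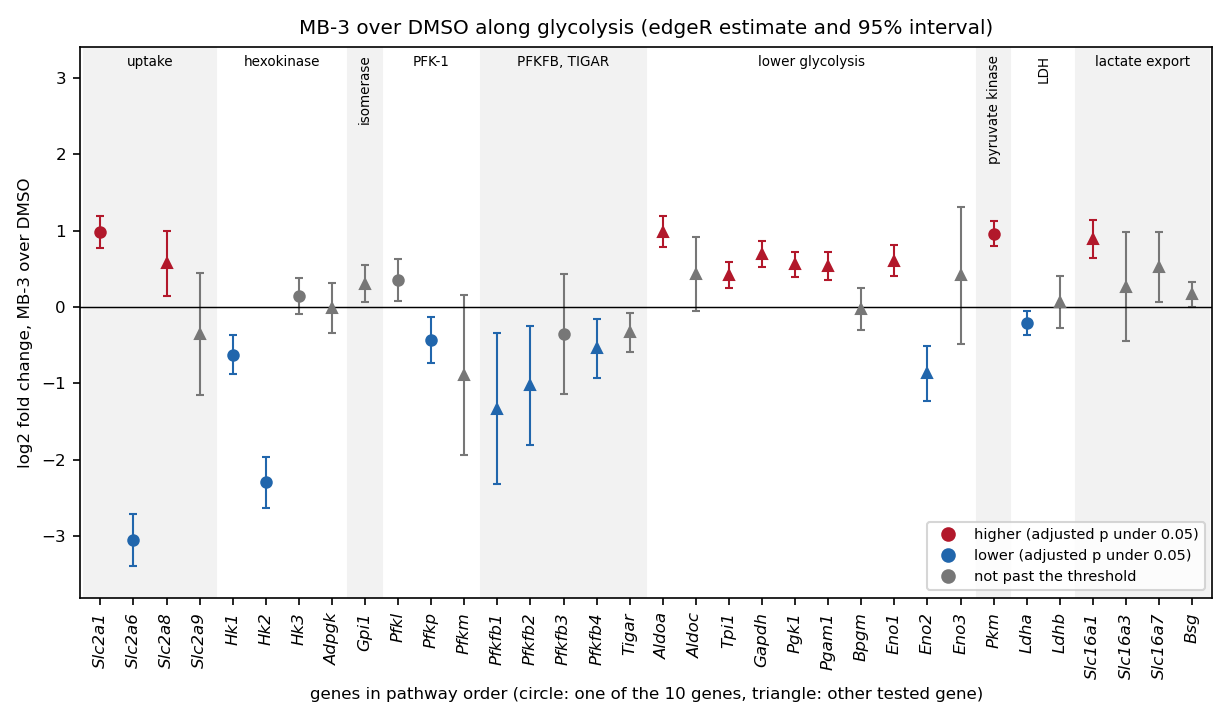
Points give the log2 fold change, MB-3 over DMSO (vertical axis), with its 95% interval, for tested genes in the order of the pathway from glucose uptake to lactate export (horizontal axis), with circles for the 10 genes and triangles for others. Red points (higher) gather between aldolase and pyruvate kinase, while blue points (lower) include Slc2a6 at -3.05, Hk2 at -2.29 and 3 PFKFB genes.

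Other genes of the upper steps changed in both directions. Of 10 tested genes of hexose and fructose phosphate conversion, 1 was higher and 3 were lower, beside 16.9% and 20.2% of all genes tested. The higher one was listed as Pgm1, a gene of the phosphoglucomutase family (log2 fold change 0.51, SE 0.089). The gene listed as Pgm2, of the same family, missed the threshold (-0.16, SE 0.16). Gpi1, of the isomerase step, also missed it, with no overlap between the groups (0.31, SE 0.098, edgeR adjusted p = 0.0525). With RLE factors, no filter, a stricter filter (10 CPM in at least 2 libraries), DESeq2 or a replicate block, the higher genes numbered 2. The lower ones were the remaining PFKFB genes, Pfkfb4 (-0.54, SE 0.16), Pfkfb1 (-1.33, SE 0.41) and Pfkfb2 (-1.03, SE 0.32), with edgeR adjusted p-values of 0.0406, 0.0459 and 0.0485. Their counts were low, at most 210, 43 and 107 in a library, and in DESeq2 and in 3 of the 4 fits without a library none of the list was called as lower. Of 12 other hexose transporter genes, 2 passed the filter, and Slc2a8, an intracellular transporter gene, was higher (log2 fold change 0.57, SE 0.17, edgeR adjusted p = 0.0443). That call was lost in DESeq2, with library totals only and without any single library, and Slc2a8 did not pass the stricter filter. Slc2a3, which encodes the high-affinity transporter GLUT3, had 9 and 11 counts with MB-3 and 9 and 5 counts with DMSO and was not tested.

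Of 19 tested genes of pyruvate and lactate use, 3 were higher and 2 lower, and 14 missed the threshold. The shares, 15.8% and 10.5%, lie at or below the 16.9% and 20.2% of all genes tested. The lower genes were Pdha1 (log2 fold change -0.26) and Pdk3 (-0.51), a subunit and a kinase of the pyruvate dehydrogenase complex. Neither was called with RLE factors, in DESeq2, or without DMSO replicate 1, DMSO replicate 2 or MB-3 replicate 1. Slc16a1, the gene of the lactate carrier MCT1, had 68.3 ± 7.18 CPM with MB-3 and 36.8 ± 0.780 CPM with DMSO (SD, n = 2 each; log2 fold change 0.89, SE 0.10, edgeR adjusted p = 1.23e-03). Pdp1 and Pdhx, which encode a phosphatase and a subunit of the pyruvate dehydrogenase complex, rose by 0.66 and 0.43 on the log2 scale. Slc16a3, the gene of the lactate exporter MCT4, was at 21.2 and 11.0 CPM with MB-3 and at 13.5 and 13.2 CPM with DMSO, with overlapping groups (log2 fold change 0.27, SE 0.29, edgeR adjusted p = 0.518).

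Regulators of these genes did not move as a block. Hif1a, which encodes the oxygen-regulated subunit of HIF-1, had 163 and 137 CPM with MB-3 and 207 and 189 CPM with DMSO (log2 fold change -0.40, SE 0.11, edgeR adjusted p = 0.0282). Egln1, the gene of a hydroxylase that marks that subunit for degradation, rose by 0.94 on the log2 scale (SE 0.12, edgeR adjusted p = 1.52e-03). Txnip, a glucose-responsive gene whose product restrains glucose uptake, had 72.0 and 37.9 CPM with MB-3 and 199 and 159 CPM with DMSO. Its fall of 1.71 on the log2 scale (SE 0.29) was accompanied by a smaller fall of its relative Arrdc4, by 0.47 (SE 0.082). Of 16 tested regulators, 2 were higher (12.5%) and 3 lower (18.75%), near the 16.9% and 20.2% of all genes tested, and 11 missed the threshold, among them Myc, with a log2 fold change of -0.10. The higher count fell without DMSO replicate 2, MB-3 replicate 1 or MB-3 replicate 2. The lower count fell without DMSO replicate 1 or MB-3 replicate 2 and rose without DMSO replicate 2. With all libraries kept, it was 4 with library totals only, without the filter on low counts, and with a replicate block.

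HIF-1 targets outside glycolysis gave 4 higher genes, 1 lower gene (Ndrg1) and 7 that missed the threshold, of 12 tested, with a median log2 fold change of 0.18. Kdm3a, a histone demethylase gene, rose by 0.78 (SE 0.10), and the mitophagy receptor genes Bnip3 and Bnip3l rose by 0.78 (SE 0.11) and 0.80 (SE 0.13). These shares, 33.3% higher and 8.33% lower, stand beside 16.9% and 20.2% of all genes tested. The call of Ndrg1 was lost without DMSO replicate 1, MB-3 replicate 1 or MB-3 replicate 2.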

How the data were processed

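The authors deposited whole-number counts and FPKM values per gene for each library, per the file headers. HISAT2, StringTie 1.3.0 and edgeR are named in the submitters' processing notes, with the builds mm10 and GRCm38.p4, and no source used here gives the counting rules for strand and shared reads. The deposited FPKM is a rescaling of the counts: implied gene lengths agreed within 0.1% for 100% of 14901 genes. Columns were matched to samples by treatment initial and number. The test was that of edgeR 4.0.16 under R 4.3.3 on these counts (filterByExpr, TMM, glmQLFit and glmQLFTest, group as the only term, biological coefficient of variation 0.126), with SE from the F statistic. Replicates differed beyond sampling noise (chi-square per degree of freedom 11.7 for MB-3 and 13.8 for DMSO). The procedure was tested on simulated data. Similar transcripts were sought with blastn 2.17.0 in GENCODE M21, whose bounds for the 10 genes equal the deposited ones. Alternatives were DESeq2 1.42.0, limma 3.58.1 on log2 FPKM, other scalings and filters, and left-out libraries.

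The 10 genes, the lists and the tests were chosen with earlier results of these data known. From each list the 3 tested genes with the smallest p were named, with Hif1a, Slc2a3, Gapdh and Slc16a3 in any case and the leading marker of a cell type; other list genes named were chosen after their values were seen.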

Additional observations from a re-analysis of the deposited data

How the results depend on the processing

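Slc2a6, Hk2, Hk1, Slc2a1 and Pkm kept their direction and their side of the threshold in all 13 alternative settings, with log2 fold changes from -3.19 to -2.87, -2.42 to -1.93, -0.68 to -0.44, 0.85 to 1.07 and 0.91 to 1.05. The number of lower members was 5 in the analysis reported, 3 with RLE factors and 3 to 4 without a library. Pfkp and Ldha lost their calls with RLE factors and without DMSO replicate 1, MB-3 replicate 1 or MB-3 replicate 2, and Ldha alone without DMSO replicate 2. Pfkl was called as higher with RLE factors (adjusted p = 0.0472), upper quartile factors (0.0439) and a replicate block (0.0391), over a range from 0.0391 to 0.246. Pfkfb3 reversed without DMSO replicate 1, to 0.24 (adjusted p = 0.520, range 0.0562 to 0.897), the lowest value without a library being -0.72, and the cause was not tested. Over all genes, the higher calls ranged from 1283 (without MB-3 replicate 1) to 1802 when a library was left out, against 1999. Scaling moved the median of all genes to between -0.05 and 0.04. No source used here says what a replicate number marks: deviations of same-numbered libraries correlated with r = 0.217 over 11841 genes in the 2 pairs, too few to treat them as pairs, and a replicate block gave 2340 higher and 2706 lower genes, against 1999 and 2392. Totals of 15598531 to 21320618 counts leave genes with few counts, such as Slc2a3 and Pfkfb1, imprecise.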
